A study of Rattus norvegicus with 8 samples.

Results

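The genes described here encode the enzymes of glycolysis, the lactate dehydrogenases, and the enzymes and regulators that build and break down glycogen. The list holds 36 genes, chosen by name, of the 10446 genes tested. Of these, 34 had at least 1 probe set annotated with that symbol alone, and they are represented by 52 probe sets in all. Pkm, for muscle pyruvate kinase, had 1 probe set that also carried the symbol of a second locus, and Ppp1r3c had none in the annotation used, so neither is described. Epm2a, for the glycogen phosphatase laforin, was too dim to be tested, and Gapdh was present only as quality control probe sets of the array maker, which were kept out of the fit. The remaining 32 members were tested, each by its brightest probe set.

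Expression was measured in the extraocular muscles of adult Sprague-Dawley rats that weighed 200 ± 40 g at the start, with 1 Affymetrix array for each of 8 rats. Rats of the hyperthyroid group (n = 4, arrays 1, 2, 3 and 5) were given 25 µg of T3, the active thyroid hormone, per 100 g body weight intraperitoneally on every second day over 6 weeks, and tissue was collected 24 hours after the final dose. Control rats (n = 4, arrays 7, 8, 9 and 11) were untreated. The labels state neither the sex of the rats nor how many of the small eye muscles went into each extract. The design asks how chronic thyroid hormone excess shifts expression in these muscles.

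Glycolysis splits glucose into pyruvate and yields ATP without oxygen, and lactate dehydrogenase turns pyruvate into lactate and back. Skeletal muscle also stores glucose as glycogen, which phosphorylase releases during contraction and glycogen synthase rebuilds at rest. Many steps have a muscle isozyme and one or more isozymes typical of other tissues, so that the isozyme mixture differs between muscle, heart, liver and brain. Extraocular muscles are small, fast and almost constantly active, and their preparations can carry nerve, fat and glandular tissue of the orbit.

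All arrays had a trimmed mean signal of 150.1, and their medians ran from 47.8 to 58.5. The muscle markers Ckm, Acta1, Tnnt3 and Myh4 were abundant on each array, with a summed signal between 80400 and 117240. The array labelled hyperthyroid 5 lacked the extraocular muscle markers Myh13, Myh8 and Myh3, whose summed signal was 223 on it and 20859 to 36116 on the other 7. Its summed slow fibre markers stood at 55880, against 9714 to 23353 elsewhere. Hyperthyroid 5 and hyperthyroid 2 also had a low summed signal of glial markers. Dividing the 3 prime Gapdh signal by its 5 prime counterpart gives a ratio that is higher in shortened RNA. This Gapdh ratio reached 3.91, 4.40 and 2.18 on hyperthyroid 1, 2 and 3, and lay between 1.44 and 1.97 on the other 5 arrays. The log2 difference of each tested member is therefore given on all 8 arrays and without hyperthyroid 5. For several members it is also given with the log2 Gapdh ratio as a covariate in the fit.

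No member passed the threshold between hyperthyroid and control muscle in either fit. On all 8 arrays the members nearest to it were Eno1, Tpi1, Phkb and Pfkfb1. Eno1, the enolase found in most tissues, had about 0.582 of the control level, and Tpi1, for triose phosphate isomerase, had 0.726. Phkb, the regulatory beta subunit of phosphorylase kinase, had 0.755, and Pfkfb1, an enzyme that makes and removes fructose 2,6-bisphosphate, had 1.67. Without hyperthyroid 5 Eno1 and Tpi1 were nearest, and Phkb had an adjusted p of 0.428 in limma. The signals of the muscle isozymes Pfkm, Aldoa, Pgam2, Eno3 and Ldha overlapped between the groups. Those of Tpi1 and Phkb also overlapped on all 8 arrays. On all 8 arrays 4 of 5 genes of glycogen synthesis stood above the control mean and 3 of 4 of glycogen breakdown below it, without passing the test, where 48.8% of all genes were lower. With the Gapdh ratio as a covariate, only 1 of the 4 breakdown genes, Phkb, stayed below 0.

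On all 8 arrays, limma called 0 of the 32 members at an adjusted p under 0.05, and 0% of all genes tested. The smallest adjusted p of a member was 0.214. At an unadjusted p under 0.05, limma counted 3 members lower (Eno1, Tpi1 and Phkb), against 5.83% of all genes, and 1 higher (Pfkfb1), against 6.34%. The groups did not overlap for 2 members that were lower in every hyperthyroid array (Eno1 and Ldhb; 3.75% of all genes) and 1 that was higher (Pfkfb1; 4.49% of all genes). These counts of 1 to 3 members among 32 do not set the members apart from that background. In direction, 21 of 32 members had a log2 difference below 0 (65.6%, against 48.8% of all genes). The median was -0.10 over the members, 0.01 over all genes and -0.08 over the brightest 20% of genes. Without hyperthyroid 1, 15 members were lower and the median was 0.01, and without control 9 there were 17. With the Gapdh ratio as a covariate on all 8 arrays, 16 members were lower and the median was -0.0023.

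Without hyperthyroid 5, limma again called 0 of the 32 members, against 0.124% of all genes, and the smallest adjusted p was 0.0929, shared by Eno1 and Tpi1. At an unadjusted p under 0.05 there were 5 members lower (Eno1, Tpi1, Ldha, Pygm and Phkg1), against 8.24% of all genes, and 2 higher (Pfkfb1 and Gbe1), against 7.85%. The groups did not overlap for 3 members that were lower (Eno1, Ldhb and Tpi1; 7.23% of all genes) and for Pfkfb1, which was higher (8.29%). In this fit 22 of 32 members had a log2 difference below 0 (68.8%, against 48.1% of all genes), with a median of -0.13. With hyperthyroid 1 also left out, 19 were lower with a median of -0.07, while the Gapdh ratio as a covariate gave 18 lower and a median of -0.06. When each array was also centred on its median, which moved the median of all genes by -0.18, Eno1 and Tpi1 passed (adjusted p = 0.0296 and 0.0280 in limma) and 28 members were lower. With quantile normalization 19 members were lower and none passed.

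**Figure D1:**
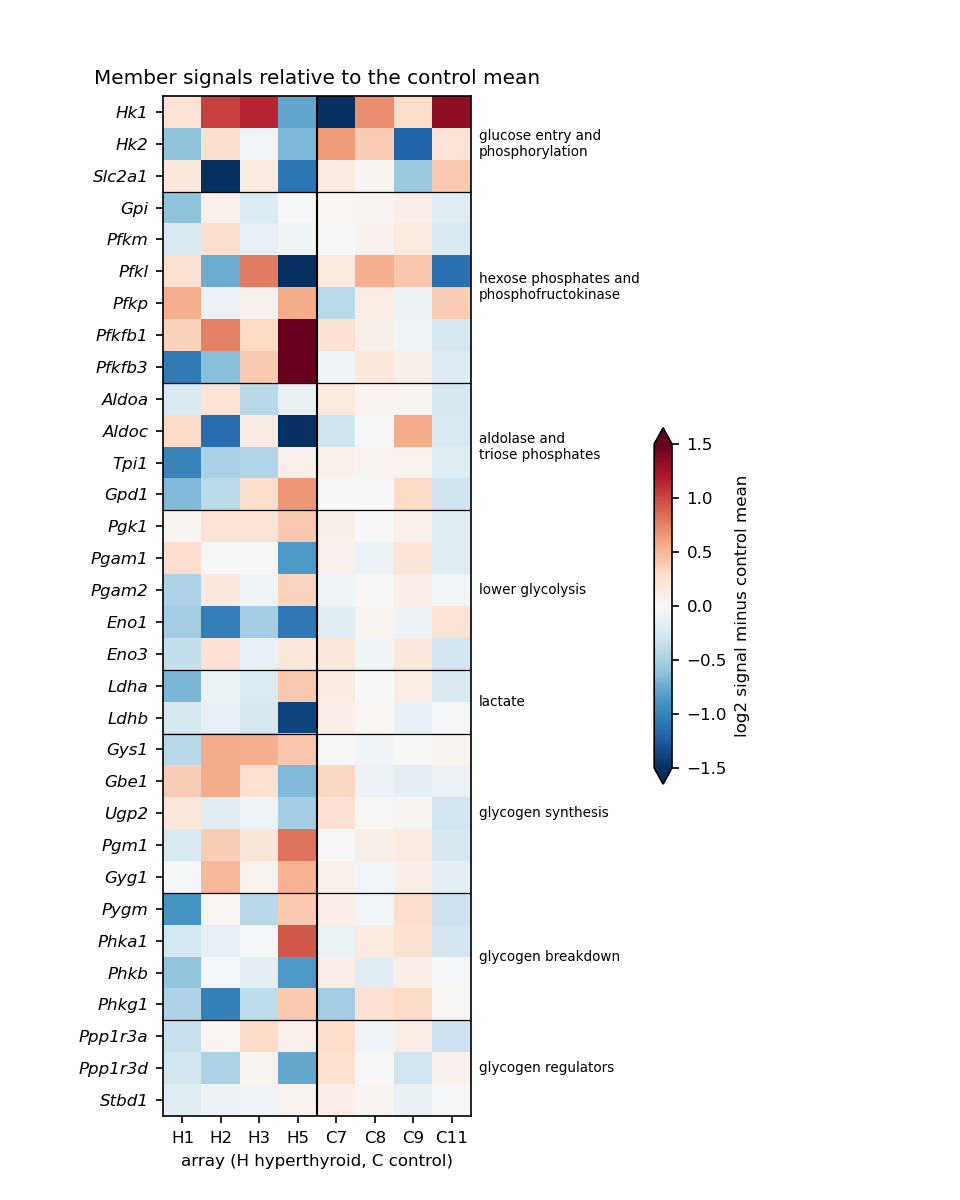
Log2 signal of the 32 tested members minus each gene's control mean (colour; colours saturate at the ends of the bar), with members in rows ordered by pathway step and arrays in columns. The row of Eno1 is blue on all 4 hyperthyroid arrays, and hyperthyroid 5 has the most members outside the control range, 13 above it and 10 below.

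The members did not move as a block on any one array. On hyperthyroid 1, 14 members lay below the range of the 4 controls and 4 above it. On hyperthyroid 2 the counts were 9 below and 10 above, on hyperthyroid 3 they were 7 and 7, and on hyperthyroid 5 they were 10 and 13. The median deviation of the members from the control mean was -0.25 on hyperthyroid 1 and -0.02, -0.02 and 0.06 on hyperthyroid 2, 3 and 5, while the controls ran from -0.17 to 0.09.

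**Figure D2:**
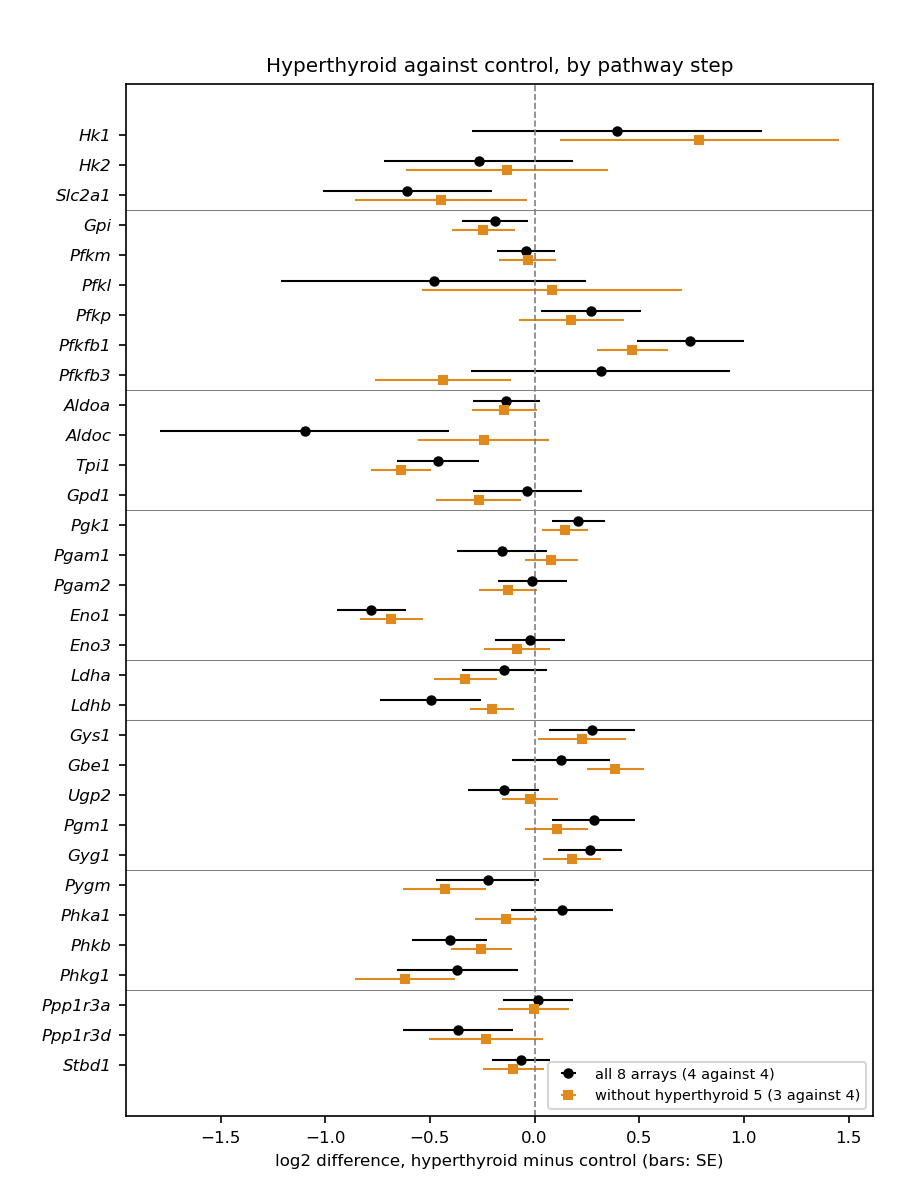
Log2 difference, hyperthyroid minus control, with its SE from limma for the 32 tested members by pathway step, on all 8 arrays (circles) and without hyperthyroid 5 (squares). Eno1 stands at -0.78 and -0.68, Pfkfb1 at 0.74 and 0.47, and Pfkfb3 changes side, from 0.32 to -0.44.

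Glucose enters the muscle fibre through transporters and is trapped as glucose 6-phosphate by hexokinase. Slc2a1, for the insulin-independent glucose transporter GLUT1 of endothelium, glia and many other cells, had signals of 164, 47.1, 162 and 69.1 on hyperthyroid arrays 1, 2, 3 and 5 and of 160, 151, 99.6 and 194 on control arrays 7, 8, 9 and 11. Hyperthyroid 2 and 5 were low and the other 2 lay inside the control range. The log2 difference was -0.61 ± 0.40 (SE; adjusted p = 0.573 in limma) and -0.45 ± 0.41 without hyperthyroid 5, and it was 0.15 when hyperthyroid 2 and 5 were both left out. Hk2, the insulin-regulated hexokinase of muscle, was dim on this array design, at 37.8, 67.9, 55.8 and 36.1 in hyperthyroid and 89.0, 74.5, 25.0 and 65.4 in control muscle. Hk1, the hexokinase of most tissues, stood at 90.9, 161, 175 and 46.2 against 16.2, 129, 95.6 and 200. The groups overlapped for both hexokinases, and their intervals were wide: the 95% interval of the log2 difference ran from -1.26 to 0.72 for Hk2 (-0.27 ± 0.45) and from -1.13 to 1.92 for Hk1 (0.39 ± 0.69). Without hyperthyroid 5 the differences were -0.13 ± 0.48 for Hk2 and 0.79 ± 0.67 for Hk1.

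Phosphofructokinase commits the sugar to glycolysis, and fructose 2,6-bisphosphate is its strong activator. Pfkm, the muscle subunit, had signals of 6011, 8230, 6441 and 6695 in hyperthyroid and 7080, 7301, 7722 and 5982 in control muscle, a log2 difference of -0.04 ± 0.14 (95% interval -0.34 to 0.26), and -0.03 ± 0.14 without hyperthyroid 5. The groups overlapped, and an increase or decrease of more than that interval was not seen in the brightest probe set. Pfkp, the platelet subunit, stood at 194, 125, 139 and 195 against 100, 143, 125 and 172 (0.27 ± 0.24, and 0.18 ± 0.25 without hyperthyroid 5), and Pfkl, the liver subunit, at 41.8, 21.2, 60.3 and 7.87 against 39.4, 52.0, 47.5 and 16.4 (-0.48 ± 0.73). Both overlapped between the groups, and Pfkl changed sign without hyperthyroid 5 (0.08 ± 0.62). Gpi, which converts glucose 6-phosphate to fructose 6-phosphate, ranged from 2472 to 3949 in hyperthyroid and from 3342 to 4029 in control muscle (-0.19 ± 0.16, and -0.24 ± 0.15 without hyperthyroid 5).

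Pfkfb1 encodes the bifunctional enzyme isoform of liver and skeletal muscle that sets the level of fructose 2,6-bisphosphate. Its signals were 485, 645, 467 and 1133 on hyperthyroid arrays 1, 2, 3 and 5, and 441, 404, 366 and 323 on the controls. All 4 hyperthyroid arrays lay above all 4 controls, and hyperthyroid 5 was by far the highest. The means were 682 ± 311 and 383 ± 50.7 (SD, n = 4 each), a log2 difference of 0.74 ± 0.26 (adjusted p = 0.332 in limma). Without hyperthyroid 5 it was 0.47 ± 0.17 (adjusted p = 0.229 in limma), and the sign was the same under all 18 other settings tried. Some of these settings, such as a change of filter, cannot alter the log2 difference. The Gapdh ratio as a covariate moved it in opposite directions, to 1.02 on all 8 arrays and to 0.11 without hyperthyroid 5. Pfkfb3, the isoform with high kinase activity, stood at 56.5, 76.0, 154 and 704 against 114, 132, 125 and 103. Hyperthyroid 5 was far above every other array, while hyperthyroid 1 and 2 lay below all controls, so the log2 difference went from 0.32 ± 0.62 to -0.44 ± 0.33 without that array. With the covariate it was 1.55 on all 8 arrays and 0.64 without hyperthyroid 5.

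Aldolase splits fructose 1,6-bisphosphate into triose phosphates, which triose phosphate isomerase interconverts. Tpi1 had signals of 6004, 8542, 8762 and 12579 in hyperthyroid and 12629, 12342, 12344 and 10553 in control muscle. Hyperthyroid 1, 2 and 3 lay below every control and hyperthyroid 5 lay near the top of the control range. The log2 difference was -0.46 ± 0.20 on all arrays (adjusted p = 0.411 in limma) and -0.64 ± 0.14 without hyperthyroid 5 (adjusted p = 0.0929 in limma), with means of 7769 ± 1532 (SD, n = 3) and 11967 ± 952 (SD, n = 4). The 3 low arrays are those with the high Gapdh ratio. With that ratio as a covariate the difference was -0.19 on all arrays and -0.47 without hyperthyroid 5, and with hyperthyroid 1 left out of the 8 arrays it was -0.28. The part of RNA length in the result was not tested further.

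Aldoa, the muscle aldolase, stood at 25213, 33723, 22034 and 27236 against 32383, 30461, 30382 and 24828, with overlapping groups (-0.14 ± 0.16; 95% interval -0.49 to 0.22). Without hyperthyroid 5 the difference was -0.15 ± 0.15, and -0.62 with the covariate as well. Aldoc, the aldolase typical of brain, had signals of 526, 196, 467 and 33.9 against 351, 421, 631 and 368. Hyperthyroid 2 and 5 lay below all controls and hyperthyroid 1 and 3 lay inside the control range. The log2 difference of Aldoc was therefore -1.10 ± 0.69 on all arrays, -0.24 ± 0.31 without hyperthyroid 5 and 0.20 without hyperthyroid 2 and 5, while the Gapdh ratio as a covariate on all arrays brought it to -2.03, and to 0.46 without hyperthyroid 5. Gpd1, the cytosolic glycerol 3-phosphate dehydrogenase that links glycolysis to lipid synthesis and to the glycerol phosphate shuttle, ranged from 1357 to 3406 in hyperthyroid and from 1750 to 2651 in control muscle (-0.04 ± 0.26, and -0.27 ± 0.20 without hyperthyroid 5). With the covariate it stood at 0.42 and 0.40.

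The lower stretch of glycolysis runs from glyceraldehyde 3-phosphate to pyruvate. Eno1 had the smallest p of all members. Its signals were 1459, 1029, 1465 and 995 on hyperthyroid arrays 1, 2, 3 and 5 and 1864, 2170, 1958 and 2406 on control arrays 7, 8, 9 and 11. Every hyperthyroid array lay below every control, by group means of 1237 ± 260 and 2099 ± 241 (SD, n = 4 each). The log2 difference was -0.78 ± 0.16 (unadjusted p = 0.000554, adjusted p = 0.214 in limma). Without hyperthyroid 5 it was -0.68 ± 0.15 (adjusted p = 0.0929 in limma), and it was -0.52 with hyperthyroid 2 also left out. The sign was the same under all 18 other settings tried, and the values ran from -0.90 to -0.52. Some of these settings, such as a change of filter, cannot alter the log2 difference. With the Gapdh ratio as a covariate Eno1 stood at -0.82 on all 8 arrays and at -0.32 without hyperthyroid 5 (unadjusted p = 0.229 in limma). Without hyperthyroid 5 the Gapdh ratio was higher on every hyperthyroid array than on any control. The part of RNA length in the result was not tested further. Eno3, the enolase of adult skeletal muscle, stood at 14848, 22045, 17492 and 21349 against 21388, 18217, 21324 and 15604. Its groups overlapped almost fully, with a log2 difference of -0.02 ± 0.17 (95% interval -0.39 to 0.35), and -0.08 ± 0.16 without hyperthyroid 5.

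The other genes of this stretch overlapped between the groups. Pgam2, the muscle phosphoglycerate mutase, had signals of 5125, 7865, 6739 and 8905 against 6740, 7129, 7557 and 6875 (-0.01 ± 0.16, and -0.13 ± 0.14 without hyperthyroid 5). Pgam1, the mutase of brain and most other tissues, stood at 2512, 2106, 2105 and 1162 against 2214, 1976, 2415 and 1886, so that only hyperthyroid 5 lay below the controls and the log2 difference went from -0.16 ± 0.21 to 0.08 ± 0.13 without it (-0.49 and -0.05 with the covariate). Pgk1, for phosphoglycerate kinase, ranged from 7787 to 10063 in hyperthyroid and from 6765 to 8035 in control muscle (0.21 ± 0.13, and 0.14 ± 0.11 without hyperthyroid 5). The 3 prime probe set of Gapdh ranged from 17382 to 24167 and from 20200 to 23197 (exact permutation p = 0.629, two-sided, n = 4 each; the smallest possible p is 0.0286). The middle and 5 prime probe sets had exact permutation p = 0.0857 and p = 0.229. Both lay below every control on hyperthyroid 1, 2 and 3, the arrays with the high Gapdh ratio, and above the lowest control on hyperthyroid 5.

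Lactate dehydrogenase is a tetramer of A and B subunits, A prevailing in fast muscle and B in heart and oxidative fibres. Ldhb had signals of 5986, 6508, 6009 and 2728 in hyperthyroid and 7619, 7253, 6523 and 6999 in control muscle. All hyperthyroid arrays lay below all controls, but the nearest pair, hyperthyroid 2 at 6508 and control 9 at 6523, were almost equal, and hyperthyroid 5 was far below the rest. The log2 difference was -0.50 ± 0.24 (adjusted p = 0.461 in limma), and -0.20 ± 0.11 without hyperthyroid 5 (adjusted p = 0.391 in limma). With the Gapdh ratio as a covariate Ldhb stood at -0.90 on all 8 arrays and at -0.29 without hyperthyroid 5. Ldha stood at 4991, 7517, 7017 and 10701 against 8742, 8023, 8686 and 6923. The highest and the lowest of the 8 values were both hyperthyroid arrays, 5 and 1, and the log2 difference was -0.15 ± 0.20 on all arrays and -0.33 ± 0.15 without hyperthyroid 5 (adjusted p = 0.324 in limma).

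**Figure D3:**
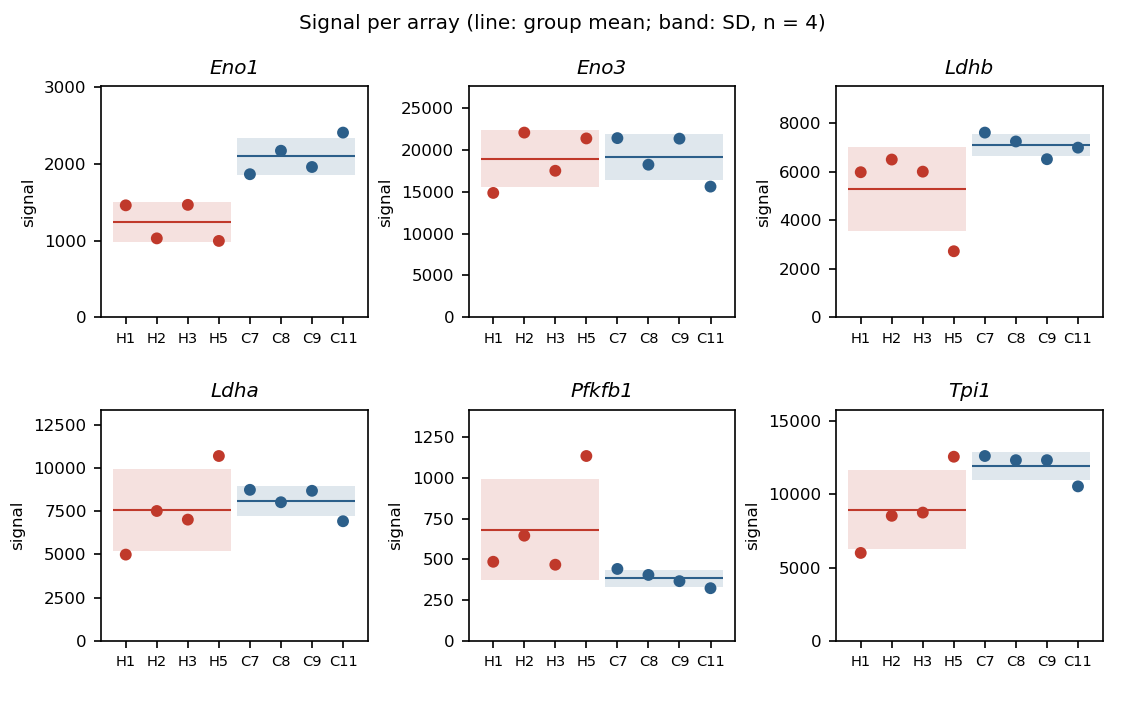
Signal on each array for Eno1, Eno3, Ldhb, Ldha, Pfkfb1 and Tpi1 (linear axes from 0; H hyperthyroid, C control; line, group mean; band, SD, n = 4). Eno1 is at 995 to 1465 in hyperthyroid and 1864 to 2406 in control muscle, while Eno3 overlaps, and hyperthyroid 5 stands apart for Ldhb, Pfkfb1 and Ldha.

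The ratio of isozymes within an array does not depend on how the arrays are scaled to each other. The log2 ratio of the Eno3 to the Eno1 signal took values of 3.35, 4.42, 3.58 and 4.42 in hyperthyroid and 3.52, 3.07, 3.45 and 2.70 in control muscle. All but hyperthyroid 1 exceeded every control, and the group means were 3.94 ± 0.56 and 3.18 ± 0.38 (SD, n = 4 each), or 3.78 ± 0.57 (SD, n = 3) without hyperthyroid 5. The Ldha to Ldhb ratio was -0.26, 0.21, 0.22 and 1.97 against 0.20, 0.15, 0.41 and -0.02. It lay far above every control on hyperthyroid 5 and somewhat below every control on hyperthyroid 1. Hyperthyroid 5 also gave the highest Pgam2 to Pgam1 ratio (2.94, others 1.03 to 1.90) and the highest Aldoa to Aldoc ratio (9.65, others 5.56 to 7.43). Pfkl was below the filter level of 28.2 on 3 arrays, so its ratio to Pfkm is not given. The Pfkm to Pfkp ratio overlapped between groups (5.41 ± 0.49 and 5.72 ± 0.45; SD, n = 4 each). The Hk2 to Hk1 ratio spanned -1.93 to 2.46 among the controls alone. The Pfkfb3 to Pfkfb1 ratio was -3.10 and -3.08 on hyperthyroid 1 and 2 and between -1.95 and -0.69 on the other 6 arrays.

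On all 8 arrays Eno1 and Ldhb were lower without overlap, as were 3.75% of all genes, while Eno3 and Ldha overlapped. No member passed the test, and the nearest Ldhb values, 6508 and 6523, were almost equal. For description only, the promoters of the enolase and lactate dehydrogenase pairs are shown with that of Pfkfb1. They are the 250 bases before and 50 bases after the gene start in RefSeq (build GRCr8), 300 bases each, read 5′ to 3′ on the strand of the gene. Capitals mark each match, on either strand, to ACGTG, the core bound by hypoxia-inducible factors, or to AGGTCA, the half-site bound by thyroid hormone receptors. The Eno1 promoter (chr5:166002617-166002916, plus strand), the Eno3 promoter (chr10:55868936-55869235, plus strand) and the Pfkfb1 promoter (chrX:22941926-22942225, plus strand) held neither. The Ldha promoter (chr1:106507842-106508141, plus strand) held 3 matches to ACGTG, of which 2 lie on opposite strands of a single CACGTG. The Ldhb promoter (chr4:177177359-177177658, minus strand) held none of these but 1 match to AGGTCA.
Eno1: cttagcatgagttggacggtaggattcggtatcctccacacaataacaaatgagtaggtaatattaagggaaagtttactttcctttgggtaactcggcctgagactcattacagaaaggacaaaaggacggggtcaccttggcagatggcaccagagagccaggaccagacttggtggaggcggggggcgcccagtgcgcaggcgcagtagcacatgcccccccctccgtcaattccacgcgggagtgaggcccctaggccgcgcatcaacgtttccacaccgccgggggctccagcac
Eno3: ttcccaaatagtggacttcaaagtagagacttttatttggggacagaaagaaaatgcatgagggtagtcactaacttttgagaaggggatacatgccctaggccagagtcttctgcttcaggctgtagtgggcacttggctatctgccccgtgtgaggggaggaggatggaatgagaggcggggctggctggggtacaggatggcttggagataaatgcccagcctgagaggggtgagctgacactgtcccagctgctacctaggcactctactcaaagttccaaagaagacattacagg
Ldha: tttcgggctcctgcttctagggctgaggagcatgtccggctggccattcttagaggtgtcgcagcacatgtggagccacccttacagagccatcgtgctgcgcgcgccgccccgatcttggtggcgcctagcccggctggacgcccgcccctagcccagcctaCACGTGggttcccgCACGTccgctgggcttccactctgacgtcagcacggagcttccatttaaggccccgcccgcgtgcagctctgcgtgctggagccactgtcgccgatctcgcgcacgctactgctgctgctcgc
Ldhb: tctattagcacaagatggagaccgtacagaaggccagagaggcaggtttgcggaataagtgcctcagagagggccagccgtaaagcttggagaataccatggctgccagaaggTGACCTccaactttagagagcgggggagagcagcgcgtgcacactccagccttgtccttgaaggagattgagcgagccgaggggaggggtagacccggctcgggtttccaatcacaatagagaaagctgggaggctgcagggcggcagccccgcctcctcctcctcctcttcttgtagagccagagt
Pfkfb1: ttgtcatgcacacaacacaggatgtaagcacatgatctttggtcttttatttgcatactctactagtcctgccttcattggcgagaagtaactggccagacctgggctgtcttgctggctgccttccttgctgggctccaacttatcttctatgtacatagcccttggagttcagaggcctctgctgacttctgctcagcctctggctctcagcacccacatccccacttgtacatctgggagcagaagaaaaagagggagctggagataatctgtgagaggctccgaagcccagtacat

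Of the 32 tested members, 30 had a promoter under their symbol in the RefSeq table. ACGTG was found in 13 of them (43.3%), against 19.3% of 33469 promoters of the same length, and the E-box CACGTG, which contains ACGTG on both strands, in 4 (13.3%, against 6.42%). AGGTCA was found in 2, Ldhb and Tpi1 (6.67%, against 16.2%). The 33469 promoters outnumber the 10446 genes tested, so they were not limited to genes that passed the signal filter, as the members were. The percentages therefore do not compare like with like. Whether these motifs are more or less frequent in the members than in comparable genes was not tested. A match is a description of these letters only, and other promoters of the same genes were not searched.

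Glycogen is made from glucose 6-phosphate through phosphoglucomutase, UDP-glucose pyrophosphorylase, the primer protein glycogenin, glycogen synthase and the branching enzyme. Of these 5 genes 4 had a log2 difference above 0, with a median of 0.27 over the 5 on all arrays and 0.18 without hyperthyroid 5, and none passed the test. Gyg1, for glycogenin, had the smallest p, with signals of 3105, 4441, 3253 and 4516 in hyperthyroid and 3305, 3056, 3351 and 2868 in control muscle. Hyperthyroid 2 and 5 were above all controls and the other 2 were not (0.27 ± 0.15; adjusted p = 0.517 in limma), and the difference was 0.18 ± 0.14 without hyperthyroid 5. Gys1, muscle glycogen synthase, stood at 470, 918, 912 and 833 against 626, 605, 621 and 651. Here 3 hyperthyroid arrays exceeded every control and hyperthyroid 1 lay below every control, and the log2 difference was 0.27 ± 0.20, and 0.23 ± 0.21 without hyperthyroid 5. With hyperthyroid 1 left out of the 8 arrays, Gys1 stood at 0.50, Pgm1 at 0.45 and Gyg1 at 0.36, and no member was called. Gbe1, the branching enzyme, ranged from 2880 to 6677 and from 4122 to 5641, with 0.13 ± 0.23 on all arrays and 0.39 ± 0.14 without hyperthyroid 5 (adjusted p = 0.213 in limma). Pgm1, for phosphoglucomutase, ranged from 2043 to 4209 and from 2032 to 2634 (0.28 ± 0.20, and 0.11 ± 0.15 without hyperthyroid 5), and Ugp2, for the pyrophosphorylase, from 9534 to 15388 and from 11375 to 15984 (-0.15 ± 0.17, and -0.02 ± 0.14 without hyperthyroid 5). Adding the Gapdh covariate on all 8 arrays, Gbe1 went to -0.29, and averaged over its probe sets Pgm1 went to -0.15.

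Glycogen phosphorylase, activated by phosphorylase kinase, releases glucose 1-phosphate. All 4 genes of breakdown were below the control mean without hyperthyroid 5, with a median log2 difference of -0.34, and 3 of 4 were so on all arrays (median -0.30), and none passed the test. With the Gapdh ratio as a covariate on all arrays, Pygm stood at 0.0020, Phkg1 at 0.08 and Phka1 at 0.51, and Phkb alone was lower, at -0.59. Without hyperthyroid 5 all 4 were below 0 with it, from -0.59 to -0.0042. Phkb had signals of 1769, 2601, 2408 and 1460 in hyperthyroid and 2858, 2371, 2836 and 2596 in control muscle. Hyperthyroid 1 and 5 lay below all controls, and the log2 difference was -0.41 ± 0.18 (adjusted p = 0.420 in limma) and -0.25 ± 0.14 without hyperthyroid 5. Pygm, muscle phosphorylase, stood at 2549, 4841, 3573 and 6241 against 5114, 4623, 5672 and 3827 on its brightest probe set. Hyperthyroid 5 was the highest of the 8 arrays and hyperthyroid 1 the lowest (-0.22 ± 0.24, and -0.43 ± 0.20 without hyperthyroid 5). Phkg1, the catalytic subunit of the muscle kinase, ranged from 130 to 344 and from 183 to 321 (-0.37 ± 0.29, and -0.62 ± 0.24 without hyperthyroid 5). Phka1, the alpha subunit of muscle, ranged from 723 to 1658, the highest value being hyperthyroid 5, against 717 to 1019 (0.13 ± 0.24, and -0.14 ± 0.15 without that array).

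The log2 ratio of the Gys1 to the Pygm signal took values of -2.44, -2.40, -1.97 and -2.91 in hyperthyroid and -3.03, -2.93, -3.19 and -2.55 in control muscle. Hyperthyroid 1, 2 and 3 exceeded every control, while hyperthyroid 5 lay inside the control range, and those 3 arrays again had the high Gapdh ratio.

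Among the glycogen regulators, Ppp1r3a, which tethers protein phosphatase 1 to glycogen in muscle, ranged from 1805 to 2787 in hyperthyroid and from 1835 to 2732 in control muscle (0.02 ± 0.17, and -0.0050 ± 0.17 without hyperthyroid 5). Ppp1r3d, another glycogen-targeting subunit, had signals of 76.9, 66.5, 96.5 and 54.4 against 109, 92.8, 75.8 and 97.2. Hyperthyroid 2 and 5 lay below all controls (-0.37 ± 0.26; adjusted p = 0.604 in limma), and the difference was -0.23 ± 0.27 without hyperthyroid 5. Stbd1, which links glycogen to membranes for its autophagy, was the steadiest of these 3, from 320 to 370 and from 332 to 385 (-0.06 ± 0.14; 95% interval -0.37 to 0.24), and stood at -0.10 ± 0.14 without hyperthyroid 5. Epm2a, below the filter level of 28.2 on average, stood between 1.89 and 25.3 in hyperthyroid and between 2.51 and 37.2 in control muscle and was not tested.

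Probe sets of the same gene gave different answers, most of all on the arrays with a high Gapdh ratio. Of 8 dimmer member probe sets that passed the filter, 7 had a lower log2 difference than the brightest probe set of their gene in both fits, against 54.4% of 3410 such probe sets in all genes on all arrays and 55.4% without hyperthyroid 5. A dimmer probe set of Pygm (1383072_at) had signals of 614, 1069, 1302 and 3079 in hyperthyroid and 2200, 2430, 2452 and 2267 in control muscle. Hyperthyroid 1, 2 and 3 were far below all controls and hyperthyroid 5 above them. It was the only member probe set to pass in either fit, at -1.30 ± 0.21 without hyperthyroid 5 (adjusted p = 0.0397 in limma), where the brightest one stood at -0.43. The call was lost with any one of 6 further arrays left out (adjusted p from 0.0718 to 0.160) and held only without hyperthyroid 3 (0.0133), and the Gapdh ratio as a covariate brought the difference to -0.76 ± 0.33 (adjusted p = 0.986 in limma). The other dimmer Pygm probe set (1375476_at) was at -1.62 ± 0.28 without hyperthyroid 5 (adjusted p = 0.0528 in limma).

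Other members showed the same spread between probe sets without hyperthyroid 5. For Pgm1 the brightest probe set stood at 0.11 and a dimmer one (1369473_at) at -0.90, for Gpd1 they stood at -0.27 and -1.87 (1369560_at), for Phka1 at -0.14 and -0.36 (1369357_at), and for Pgk1 at 0.14 and -0.18 (1387361_s_at). Pfkm was at -0.03 on the brightest, at -1.07 on another (1386961_at) and at 1.02 on a dim one (1384632_at), the single exception in direction. The 3 Gapdh probe sets, whose place on the transcript is given by their names, were in the same order: the 3 prime one stood at -0.14, the middle one at -0.71 and the 5 prime one at -1.06. The 5 prime Gapdh probe set gave signals of 4444, 5044, 9315 and 16826 in hyperthyroid muscle (arrays 1, 2, 3, 5) against 11800, 13341, 12175 and 12077 in controls. The positions of the other probe sets on their transcripts were not used here.

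**Figure D4:**
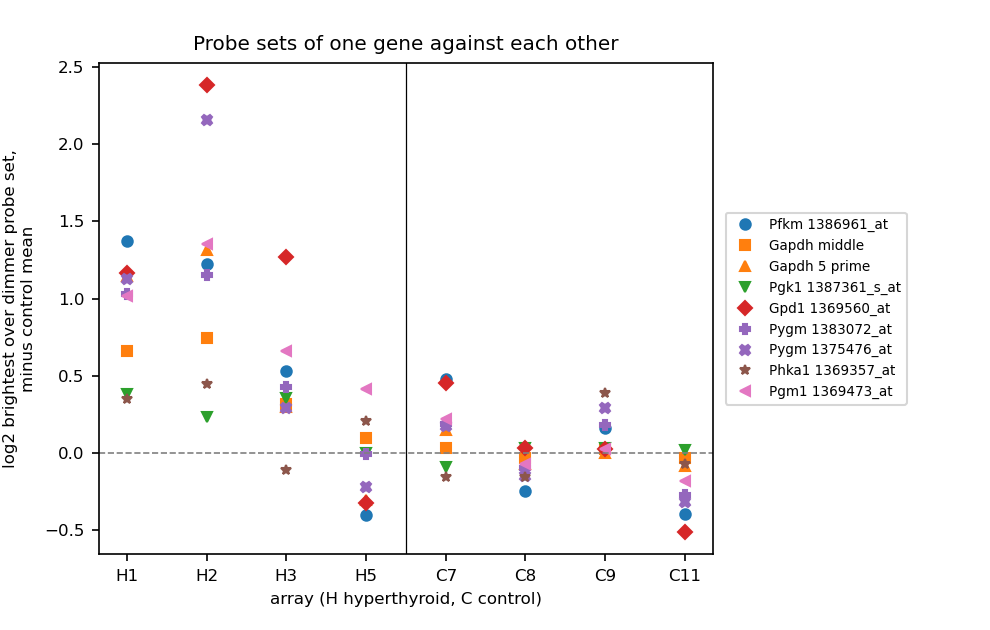
Log2 ratio of the brightest to a dimmer probe set of the same gene, minus its control mean, on each array (H hyperthyroid, C control). The dim Pfkm probe set 1384632_at, the single exception in direction, is left out, with ratios of -1.68 and -0.45 on hyperthyroid 1 and 2. The plotted ratios reach 2.38 (Gpd1, hyperthyroid 2) and are all above 0 on hyperthyroid 1 and 2, the arrays with the highest Gapdh ratio. The Gapdh 5 prime points are that ratio itself on a log2 scale. On hyperthyroid 5 the plotted ratios lie between -0.40 and 0.42.

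Markers of other cell types moved with several members. The astrocyte and oligodendrocyte list, of which 6 of 7 markers were on the array, had a summed signal of 2619 on hyperthyroid 2 and 1618 on hyperthyroid 5, of 14645 and 12795 on hyperthyroid 1 and 3, and of 9288 to 18607 on the controls, and all 6 markers were lower on average. Gfap stood at 39.5 and 13.4, and Mobp at 15.3 and 1.37, on hyperthyroid 2 and 5. Aqp4 fell far less, to 1213 and 1333 against 1706 to 2272 on the controls, and made up a large part of these sums. Among the tested members, Aldoc, Slc2a1, Eno1 and Ppp1r3d had their lowest 2 values on these same arrays. How many of all genes did so was not counted. On hyperthyroid 1 and 3 Gfap was at 1129 and 1148, within the control range of 708 to 1981. Eno1 was at 1459 and 1465 on them, still below its lowest control value of 1864. Aldoc, Slc2a1 and Ppp1r3d were inside their control ranges on both. The 5 epithelial markers were all lower on average, and their summed signal lay between 40.6 and 196 in hyperthyroid and between 257 and 773 in control muscle, so this sum separated the groups as Eno1 did. These markers were dim, and Epcam on control 11 gave 410 of the 773. Taken singly, Krt8, Epcam, Spint1 and Krt19 overlapped between the groups and Krt18 did not. The part of either tissue in these results was not tested. In whole muscle, fewer cells of a type and less RNA per cell cannot be told apart.

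**Figure D5:**
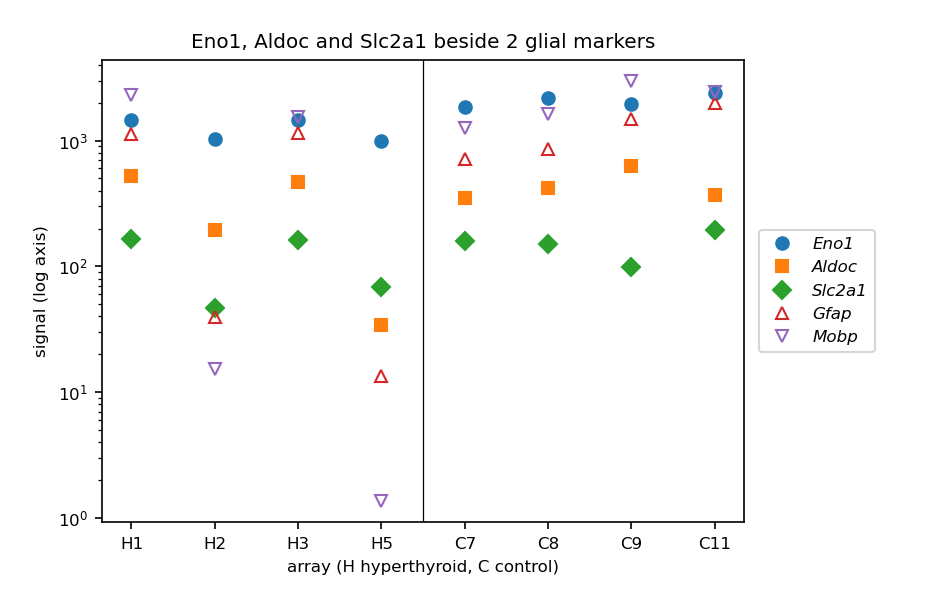
Signals (log axis) of Eno1, Aldoc and Slc2a1 (filled) beside the glial markers Gfap and Mobp (open) on each array (H hyperthyroid, C control). All 5 genes have their 2 lowest values on hyperthyroid 2 and 5; on hyperthyroid 1 and 3 the glial markers reach at least 1129 while Eno1 stays below 1864, its lowest control value.

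Other genes of the pathway, from a fixed list of 55, were tested for 35. On all arrays 0 were called by limma, 24 had a log2 difference above 0 and 11 below it, with a median of 0.13, where 48.8% of all genes were below 0. At an unadjusted p under 0.05, 5 were higher, against 6.34% of all genes, and 0 lower, against 5.83%. Without hyperthyroid 5, 0 were called, with 5 higher and 2 lower at that level, against 7.85% and 8.24% of all genes. Gapdhs, the testis form of glyceraldehyde 3-phosphate dehydrogenase, had the smallest p, with dim signals of 89.2, 70.6, 128 and 89.5 against 33.9, 35.5, 56.5 and 7.88 (1.77 ± 0.56; adjusted p = 0.313 in limma). Gpd2, the mitochondrial glycerol 3-phosphate dehydrogenase, an enzyme known to be induced by thyroid hormone in liver, stood at 692, 769, 681 and 790 against 623, 543, 612 and 476. All 4 hyperthyroid arrays exceeded all controls, with a log2 difference of 0.38 ± 0.14 (adjusted p = 0.344 in limma) and 0.35 ± 0.14 without hyperthyroid 5. Mlxip, a glucose-sensing transcription factor, stood at 229, 243, 220 and 211 against 166, 165, 204 and 165, also without overlap (0.37 ± 0.16; adjusted p = 0.419 in limma).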

How the data were processed

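Total RNA of extraocular muscle was hybridised to Affymetrix rat arrays, 1 per animal. Each probe set has 1 deposited intensity per array, not log-transformed. GCOS is named, without a version, in the submitters' processing notes. Detection calls and further filters are not given in the sources used here. Trimmed means (2% at each end) agreed between arrays, so the values had been scaled to each other before deposit.

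The table held 31099 probe sets; 57 control probe sets stayed out of the fit. Values below 1 were set to 1 and taken to log2. The filter kept the brightest 60% by mean log2 signal (18625 probe sets, above a signal of about 28.2). The groups were tested in R 4.3.3 with limma 3.58.1 (lmFit, then eBayes with trend, two-sided). Benjamini-Hochberg adjustment ran over all probe sets tested, at a threshold of 0.05. Log2 differences are hyperthyroid minus control. A gene was represented by its brightest probe set (10446 genes). Of 31042 probe sets, the platform annotation gave a single symbol to 20826, which alone were named, several to 436 and none to 9780. Promoters came from RefSeq (GRCr8). The number of arrays limits the precision.

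The members, lists, tests and most alternatives were chosen with earlier results of these data known. All members are named. Values on every array are given for the member with the smallest p in each pathway step, for members whose groups did not overlap, and for both members of each isozyme pair. Of the other pathway genes, the 3 with the smallest p are named. Correlations between members are not given, because hyperthyroid 2 and 5 stood apart from the other arrays. The marker lists were skeletal and extraocular muscle, slow and fast fibres, astrocytes and oligodendrocytes, Schwann cells, adipocytes, endothelium, leukocytes, erythroid cells, epithelium and fibroblasts.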

Additional observations from a re-analysis of the deposited data

Results flagged for a closer look

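Among 68 groups of 4 arrays examined for the 34 members with a probe set, 4 held 1 array far from the other 3, where chance alone gives about 1 in 20. For Ldhb, hyperthyroid 5 had a signal of 2728 against 5986 to 6508 on the other hyperthyroid arrays. For Gys1, hyperthyroid 1 had 469.5 against 832.5 to 917.6. Control 11 had 10550 for Tpi1 against 12340 to 12630 on the other controls, and control 7 had 5641 for Gbe1 against 4122 to 4284.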

How the results depend on the processing

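No paired analysis was possible because the groups share no replicate numbers. On all 8 arrays 0 probe sets were called, and 6 with array weights, 8 with the Gapdh ratio as a covariate and 9 without hyperthyroid 2 and 5, and between 0 and 29 with 1 array left out, the 29 being without hyperthyroid 5. Members called stayed at 0 under every alternative on all 8 arrays. Without hyperthyroid 5, 29 probe sets were called (10 higher, 19 lower), and 315 with median centring (13 higher, 302 lower), 71 with no filter, 78 with 32 added before log2, and 1 with the Gapdh ratio. With 1 further array left out the count ran from 0 to 144: among hyperthyroid arrays, omitting 1, 2 or 3 left 0, 9 and 144 probe sets, and among controls, omitting 7, 8, 9 or 11 left 11, 0, 2 and 0. With quantile normalization the split was 21 higher and 15 lower. Median centring gave 2 called members, Eno1 and Tpi1, and a member median of -0.31. On all 8 arrays, 14 members (9 lower, 5 higher) had the same sign under all alternatives that tested them, and 15 (11 lower, 4 higher) without hyperthyroid 5. Some alternatives, such as a change of filter, cannot alter a log2 difference. Gpd1 went from -0.04 to 0.42 with the Gapdh ratio. The covariate and the fit without hyperthyroid 2 and 5 were added after the data had been seen. On all 8 arrays the widest errors were those of Pfkl, Hk1, Aldoc and Pfkfb3. The causes were not tested.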

Other observations

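The remaining marker lists are given as summed signals, lowest to highest array. Fast fibre markers ran from 88675 to 106828 in hyperthyroid and from 96911 to 127075 in control muscle. Schwann cell markers ran from 3011 to 12537 against 6893 to 13586. Adipocyte markers stood at 12059 on hyperthyroid 5 and at 971 to 4168 on the other hyperthyroid arrays, against 2219 to 3674 in controls. Many members, among them Pfkfb1, Pfkfb3, Ldha, Pygm and Pgk1, were also highest on hyperthyroid 5. Others, among them Ldhb, Aldoc and Gbe1, were lowest there. Leukocyte markers were at 4305 on hyperthyroid 5, with 1197 to 1725 on the other hyperthyroid arrays and 1330 to 2242 in controls. Fibroblast markers spanned 11315 to 32005 against 16488 to 30219, endothelial markers 1345 to 1735 against 1120 to 1493, and erythroid markers 7300 to 9592 against 8777 to 13718. Their part in the values of the enzymes was not tested.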
